A study of Mus musculus with 24 samples.

Results

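The genes described here are 37 genes of fetal macrophages, chosen by symbol from a table of 34745 genes measured in whole mouse embryos. They encode the surface, scavenger, complement and lysosomal proteins by which a macrophage is recognised, and they were brought together after 2 of them, *Mrc1* and *Msr1*, had been seen to differ between the genotypes of these embryos. The genotype difference of the 37 genes is therefore given as a description, without p-values of single genes. Genes that passed a p threshold are counted and named, and nothing is read from these counts. The read counts of 35 of the 37 genes were high enough to enter the comparison of 16026 genes. The other 2, *Cd163* and *Vsig4*, were below the filter on low counts.

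Macrophages of the fetus are seeded from the yolk sac and the fetal liver, settle in nearly every tissue, and clear dying cells, debris and the nuclei that maturing red blood cells expel. They depend on the CSF-1 receptor for survival and on the transcription factor PU.1 for their identity. The mannose receptor encoded by *Mrc1* and the scavenger receptor A encoded by *Msr1* bind and take up glycoproteins, modified lipoproteins and microbial surfaces, and both are abundant on resident tissue macrophages.

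RNA-seq had been performed on 12 total embryos of the 129/DBA hybrid background at E13.5, that is, embryonic day 13.5, with 6 embryos per genotype. ZFP57 is a zinc finger protein that maintains DNA methylation at imprinted regions, and the study asked which genes depend on it. The 6 M-Z+ embryos were *Zfp57*-/+, with a deleted maternal and an intact paternal allele, and the 6 M-Z- embryos were *Zfp57*-/-, with both alleles deleted. In the study's breeding scheme such embryos come from *Zfp57*-/- females of the 129 strain crossed with *Zfp57*+/- males of a mainly DBA/2J background. All 12 embryos thus lacked maternal *Zfp57*, no embryo with maternal *Zfp57* was in the RNA-seq comparison, and the deletion was not restricted to any cell type. The labels give no sex, litter or batch. Because whole embryos were sequenced, a difference in the number of macrophages and one in the RNA per macrophage cannot be told apart.

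The libraries held between 12347383 and 19216288 counts in the M-Z+ embryos and between 12005145 and 14617373 in the M-Z- embryos. *Zfp57* reads ranged from 19.1 to 40.8 CPM (counts scaled to 1000000 per library) with a median of 23.7 in M-Z+ and from 17.8 to 27.8 CPM with a median of 26.5 in M-Z- embryos, and the groups overlapped. Which part of the gene is deleted is not given in the sources used here, so these reads check no label and the genotypes are those of the labels. In 3 libraries, M-Z+ replicate 6 and M-Z- replicates 5 and 6, longer genes took a larger part of the reads than in the others. When log2 CPM was regressed on the log2 of the gene length, the slope was 0.66 to 0.67 in these 3 and 0.44 to 0.57 in the other 9. Results that rest on these libraries are given with and without them.

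The levels of the 37 genes were compared per length, as TPM (counts per base of gene length, scaled to 1000000 per library), averaged over the 12 embryos. *Tyrobp*, the signalling adaptor of many myeloid receptors, was highest at 60.9 TPM, with a range of 37.6 to 80.7 TPM. It was followed by *C1qb* at 57.7 TPM (41.1 to 76.7), a chain of the complement protein C1q, and by *Pf4* at 55.2 TPM (32.9 to 75.4), a chemokine of platelets that fetal macrophages also express. The ranges of these 3 genes overlapped, so their order was not larger than the spread between embryos. *C1qa* was at 52.6 TPM, *Lyz2* (lysozyme) at 46.9, *F13a1* (the A subunit of coagulation factor XIII) at 39.8 and *Lyve1* (a hyaluronan receptor) at 39.0 TPM.

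*Mrc1* stood ninth of the 37 genes at 30.1 TPM, next to *Dab2* at 31.6 and *Maf* at 27.4 TPM. *Csf1r*, the receptor that defines the lineage, stood at 25.8 TPM. *Msr1* stood at 5.07 TPM, with 25 of the 37 genes above it. All 9 defining macrophage genes, namely *Csf1r*, *Adgre1*, *C1qa*, *C1qb*, *C1qc*, *Cx3cr1*, *Tyrobp*, *Fcer1g* and *Spi1*, were detected in every embryo. At the low end were *Ptprc* at 0.855 TPM, *Ms4a7* at 0.828, *Cd163* at 0.383 and *Vsig4* at 0.309 TPM. Levels per length depend on the gene lengths behind the authors' FPKM values, and the length behind *Ptprc* was 26950 bases. *Cd163*, the haemoglobin scavenger receptor, had 3 to 23 counts per embryo, with a median of 0.392 CPM in M-Z+ (0.262 to 1.75) and 0.874 CPM in M-Z- embryos (0.21 to 1.6). *Vsig4*, a complement receptor of resident macrophages, had 0 to 8 counts. In a fit without the filter on low counts, the log2 fold changes were 0.57 (SE 0.52) for *Cd163* and 1.20 (SE 1.02) for *Vsig4*, and at this depth neither could be told from 0.

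**Figure D1:**
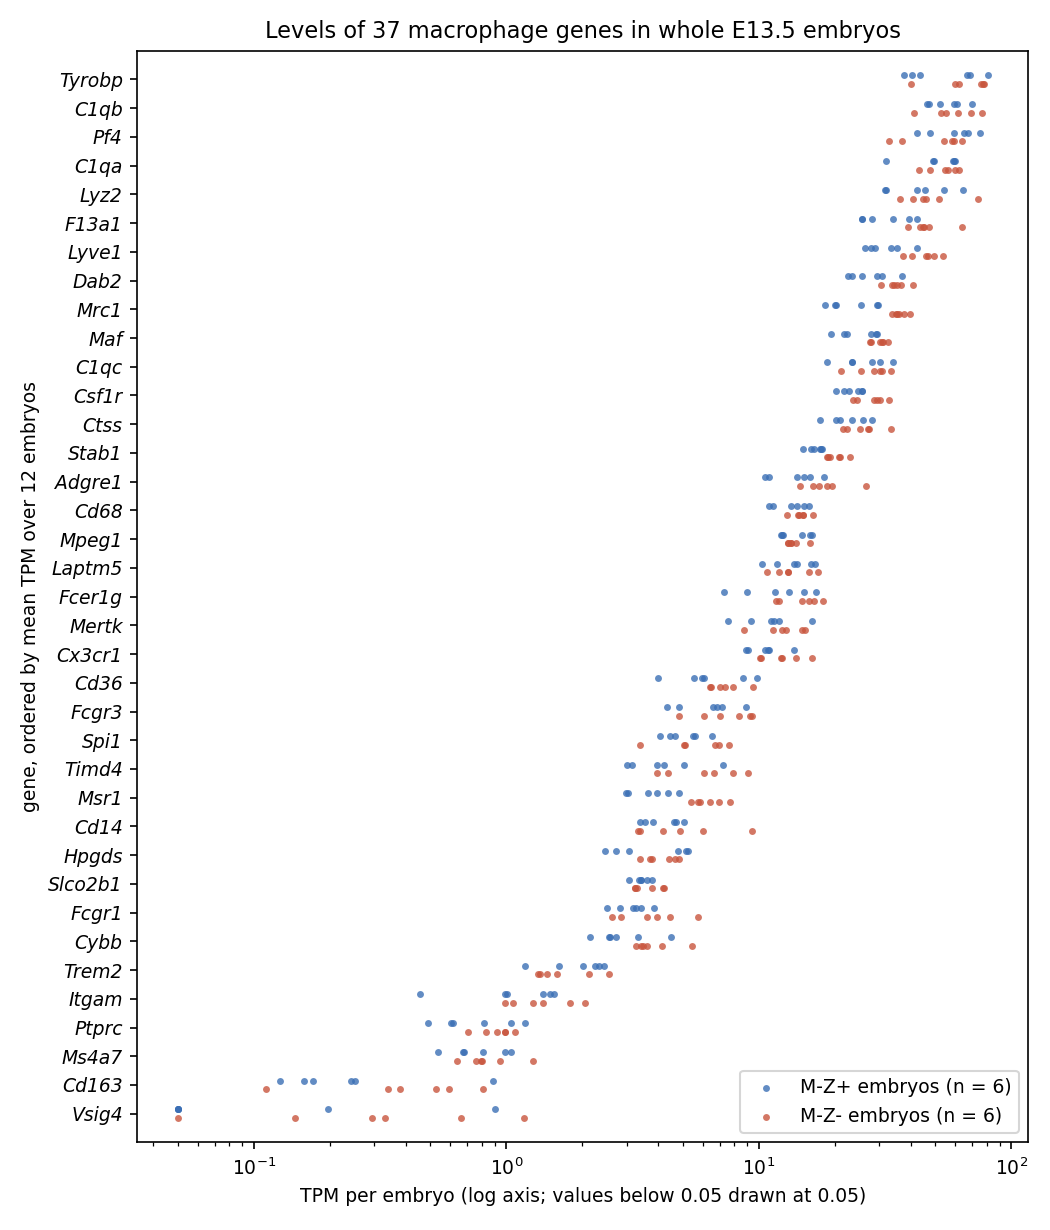
TPM (log axis) of the 37 macrophage genes in each of 6 M-Z+ embryos (blue) and 6 M-Z- embryos (red), ordered by the mean over 12 embryos, with values below 0.05 drawn at 0.05. Levels run from 60.9 TPM for *Tyrobp* to 0.309 TPM for *Vsig4*, and the 2 colours are apart for *Mrc1*, *Msr1* and *Stab1*.

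The 250 bases before the annotated start are shown for 4 genes: *Mrc1*, *F13a1* and *Stab1*, which were higher in M-Z- embryos, and *Pf4*, which had the lowest log2 fold change. No window was found for *Msr1*, which had the highest log2 fold change. The windows are from RefSeq (GRCm38.p6) and are written 5′ to 3′ on the gene's strand, with the letters GAGGAA or their reverse complement TTCCTC in capitals. These letters are the core bound by PU.1 and other Ets factors.
Mrc1 (chr2:14229164-14229413, plus strand): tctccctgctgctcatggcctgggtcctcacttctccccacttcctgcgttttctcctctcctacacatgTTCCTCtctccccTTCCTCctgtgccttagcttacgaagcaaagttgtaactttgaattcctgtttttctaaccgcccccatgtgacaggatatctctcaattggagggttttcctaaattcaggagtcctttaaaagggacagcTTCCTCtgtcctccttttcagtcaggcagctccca
F13a1 (chr13:37050245-37050494, minus strand): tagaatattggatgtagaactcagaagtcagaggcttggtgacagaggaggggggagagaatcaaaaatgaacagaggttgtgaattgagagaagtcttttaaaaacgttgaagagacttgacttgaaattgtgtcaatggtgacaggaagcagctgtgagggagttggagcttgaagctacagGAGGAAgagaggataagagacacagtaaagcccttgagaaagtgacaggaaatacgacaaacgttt
Stab1 (chr14:31168642-31168891, minus strand): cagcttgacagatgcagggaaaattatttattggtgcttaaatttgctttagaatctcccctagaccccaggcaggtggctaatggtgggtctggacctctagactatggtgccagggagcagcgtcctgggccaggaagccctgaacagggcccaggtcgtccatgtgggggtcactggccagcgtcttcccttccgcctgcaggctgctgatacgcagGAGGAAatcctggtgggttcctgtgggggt
Pf4 (chr5:90772185-90772434, plus strand): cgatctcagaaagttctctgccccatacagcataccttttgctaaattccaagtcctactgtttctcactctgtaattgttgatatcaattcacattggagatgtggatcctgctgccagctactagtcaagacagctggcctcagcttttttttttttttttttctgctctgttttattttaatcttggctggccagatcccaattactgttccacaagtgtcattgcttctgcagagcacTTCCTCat
The *Mrc1* window held the letters at 180, 167 and 35 bases before the start. The other 3 windows held them once, at 66 bases in *F13a1*, 30 in *Stab1* and 8 in *Pf4*. Promoter windows were found for 28 of the 37 genes, and 18 of the 28 held GAGGAA on either strand. *Csf1r*, *Spi1*, *Maf*, *Adgre1*, *Msr1*, *Lyve1*, *C1qa*, *Tyrobp* and *Cd14* had no window, so these shares leave them out. Counted as windows, 20 of 35 (57.1%) held it, against 7639 of 32851 windows (23.3%) of all genes. The AP-1 type letters TGANTCA were in 4 of 35 windows (11.4%), against 6.75% of all windows. The letters occurred both before genes that were higher in M-Z- embryos and before *Pf4*, and a match is a description of the sequence only.

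*Mrc1* and *Msr1* stood at the head of the uptake receptors. *Mrc1* (ENSMUSG00000026712, chr2:14229392-14332057, mm10) was at 42.0 CPM in the lowest, 48.1 in the median and 62.6 in the highest M-Z+ embryo. In the M-Z- embryos it was at 70.8, 75.0 and 80.0 CPM. All 6 M-Z- embryos were above all 6 M-Z+ embryos. The means were 50.4 ± 8.32 CPM (SD, n = 6) and 75.3 ± 4.03 CPM (SD, n = 6), and the log2 fold change was 0.58 with a standard error (SE) of 0.10, or 1.49-fold. *Msr1* (ENSMUSG00000025044, chr8:39581700-39642678) was at 3.54 CPM in the lowest, 4.22 in the median and 5.48 in the highest M-Z+ embryo, and at 6.07, 7.02 and 8.79 CPM in the M-Z- embryos. Again the groups did not overlap. The means were 4.33 ± 0.714 and 7.07 ± 1.02 CPM (SD, n = 6 each), a log2 fold change of 0.71 (SE 0.14), or 1.64-fold. *Msr1* rested on few reads, 53 to 80 in M-Z+ and 73 to 118 in M-Z- embryos, and its precision is limited accordingly.

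Without the 3 libraries of steep length slope, *Mrc1* was at 49.0 ± 8.46 CPM in 5 M-Z+ embryos and at 75.2 ± 3.88 CPM in 4 M-Z- embryos, a log2 fold change of 0.61, and that of *Msr1* was 0.73. Among the 16026 tested genes, 209 had a larger log2 fold change than *Mrc1* and 91 a larger one than *Msr1*.

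The other 7 tested uptake genes all had a log2 fold change above 0, with a median of 0.24 and a range of 0.08 to 0.49. *Lyve1* ranged from 18.1 to 31.4 CPM with a median of 23.0 in M-Z+, and from 26.1 to 40.0 CPM with a median of 34.3 in M-Z- embryos. The groups overlapped, but all 6 M-Z- embryos were above the M-Z+ median, and the log2 fold change was 0.46 (SE 0.14). Without the 3 libraries of steep length slope it was 0.51, with 21.4 to 31.4 CPM in M-Z+ and 33.7 to 40.0 CPM in M-Z- embryos and no overlap. *Stab1*, encoding the scavenger receptor stabilin-1, ranged from 72.9 to 83.6 CPM in M-Z+ and from 83.9 to 105 CPM in M-Z- embryos, with medians of 75.4 and 88.9 CPM. The groups were apart by a narrow margin and the log2 fold change was 0.24 (SE 0.07), or 0.23 without the 3 libraries of steep length slope. The table also holds *Nt5dc2* at the same locus, with 32773 reads over all libraries against 14143 for *Stab1*, and its log2 fold change was -0.15 (SE 0.10). Whether reads of the overlap were split between the genes is not given in the sources used here.

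*Dab2*, an endocytic adaptor, had a log2 fold change of 0.30 (SE 0.10), or 0.37 without the 3 libraries of steep length slope, and *Timd4*, a receptor for phosphatidylserine on dying cells, one of 0.49 with an SE of 0.27 that reflects its 31 to 67 reads per embryo. *Cd36*, *Mertk* and *Cd68*, for lipid uptake, engulfment of dying cells and a lysosomal scavenger receptor, were at 0.13 (SE 0.18), 0.12 (SE 0.15) and 0.08 (SE 0.12). These 3 values were within 1 SE of 0.

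The lineage genes were slightly higher in M-Z- embryos, 7 of 8 with a log2 fold change above 0, a median of 0.22 and a range of -0.06 to 0.37. *Csf1r* ranged from 31.4 to 44.1 CPM with a median of 40.3 in M-Z+, and from 37.3 to 55.0 CPM with a median of 48.3 in M-Z- embryos. The groups overlapped, since M-Z- replicates 5 and 6 lay below 4 or more of the M-Z+ embryos, and the log2 fold change of *Csf1r* was 0.23 (SE 0.11). Without the 3 libraries of steep length slope the overlap was gone, with 37.7 to 44.1 CPM (mean 41.1 ± 2.54 SD, n = 5) in M-Z+ and 47.0 to 55.0 CPM (mean 50.5 ± 3.32 SD, n = 4) in M-Z- embryos and a log2 fold change of 0.29. *Csf1r* overlaps *Hmgxb3* in the table, whose log2 fold change was -0.02. *Adgre1*, which encodes the macrophage antigen F4/80, ranged from 10.1 to 18.7 CPM (median 15.4) in M-Z+ and from 14.2 to 27.4 CPM (median 18.1) in M-Z- embryos, with a log2 fold change of 0.37 (SE 0.17) and overlapping groups, and of 0.41 without those 3 libraries.

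*Maf*, a transcription factor of resident macrophages that many other tissues also express, had a log2 fold change of 0.24 (SE 0.09), and *Spi1*, which encodes PU.1, one of 0.14 (SE 0.21). The chemokine receptor gene *Cx3cr1* was at 0.20 (SE 0.14), and its locus in the table spans 5 other genes, so its reads are uncertain. *Ptprc* (CD45) was at 0.19 (SE 0.19) and *Itgam* (CD11b) at 0.27 (SE 0.27). *Itgam* has a second row in the table with overlapping coordinates and 5 to 19 counts, and its value is uncertain. *Laptm5*, a lysosomal membrane protein of blood cells, was the lineage gene below 0, at -0.06 (SE 0.16), with 14.9 to 27.4 CPM (median 21.7) in M-Z+ and 15.9 to 27.0 CPM (median 20.7) in M-Z- embryos.

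The complement genes did not share the difference of *Mrc1* and *Msr1* in size. *C1qa*, *C1qb* and *C1qc* encode the 3 chains of C1q, which tags dying cells and immune complexes, and lie side by side on chromosome 4. *C1qa* ranged from 8.75 to 18.7 CPM (median 16.1) in M-Z+ and from 12.1 to 18.3 CPM (median 16.3) in M-Z- embryos. *C1qb* ranged from 13.3 to 21.6 CPM (median 17.5) and from 11.9 to 23.8 CPM (median 18.1), and *C1qc* from 10.6 to 20.8 CPM (median 16.3) and from 12.2 to 20.5 CPM (median 17.9). The groups overlapped almost wholly for all 3 genes. Their log2 fold changes were 0.03 (SE 0.17), 0.05 (SE 0.16) and 0.07 (SE 0.17). With the length slope of the libraries in the model, these values became 0.26 (SE 0.11), 0.20 (SE 0.13) and 0.29 (SE 0.11). Without the 3 libraries of steep length slope they were 0.04, 0.14 and 0.10, and without M-Z+ replicate 6, the embryo with the lowest *C1qa*, they were -0.10, -0.03 and -0.04. The C1q genes thus gave no direction that held under all settings.

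Of the 5 Fc receptor and ITAM adaptor genes, which bind antibody or carry the signal of such receptors, 4 had a log2 fold change above 0, with a median of 0.19. *Fcgr1* and *Fcer1g* were at 0.25 (SE 0.21 and 0.22), *Fcgr3* at 0.19 (SE 0.22) and *Tyrobp* at 0.18 (SE 0.24). *Tyrobp* ranged from 5.57 to 12.9 CPM (median 9.05) in M-Z+ and from 6.1 to 12.6 CPM (median 10.8) in M-Z- embryos, so that the groups covered the same range. *Trem2*, a lipid receptor that signals through the *Tyrobp* product, was lower in M-Z- embryos on average. It ranged from 2.16 to 4.08 CPM (median 3.90) in M-Z+ and from 2.24 to 4.46 CPM (median 2.66) in M-Z- embryos, with a log2 fold change of -0.22 that was no larger than its SE of 0.22.

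The innate and lysosomal genes had a median log2 fold change of 0.14, 5 of 6 being above 0. *Cybb*, the catalytic subunit of the phagocyte oxidase, was at 0.36 (SE 0.18) and *Cd14*, a co-receptor for lipopolysaccharide, at 0.27 (SE 0.27). *Ctss* (cathepsin S), *Ms4a7*, *Lyz2* and *Mpeg1* (the pore-forming perforin-2) were at 0.17 (SE 0.15), 0.10 (SE 0.25), 0.09 (SE 0.21) and -0.05 (SE 0.09). All 6 genes had overlapping groups.

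The 4 secreted, enzyme and transport genes held the third highest and the lowest log2 fold change of the list. *F13a1* ranged from 29.4 to 47.1 CPM (median 34.5) in M-Z+ and from 40.7 to 71.2 CPM (median 50.3) in M-Z- embryos. Of the 6 M-Z- embryos, 4 were above every M-Z+ embryo, and the log2 fold change was 0.51 (SE 0.15), or 0.61 without the 3 libraries of steep length slope. *Pf4* ranged from 17.0 to 29.2 CPM (median 24.5) in M-Z+ and from 12.1 to 24.6 CPM (median 21.8) in M-Z- embryos. It had the lowest log2 fold change of the 35 genes, -0.26 (SE 0.20), with overlapping groups, and -0.11 without the 3 libraries of steep length slope. *Hpgds* (prostaglandin D synthase) and *Slco2b1* (an organic anion transporter) were both at 0.06, with an SE of 0.17 and 0.10.

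**Figure D2:**
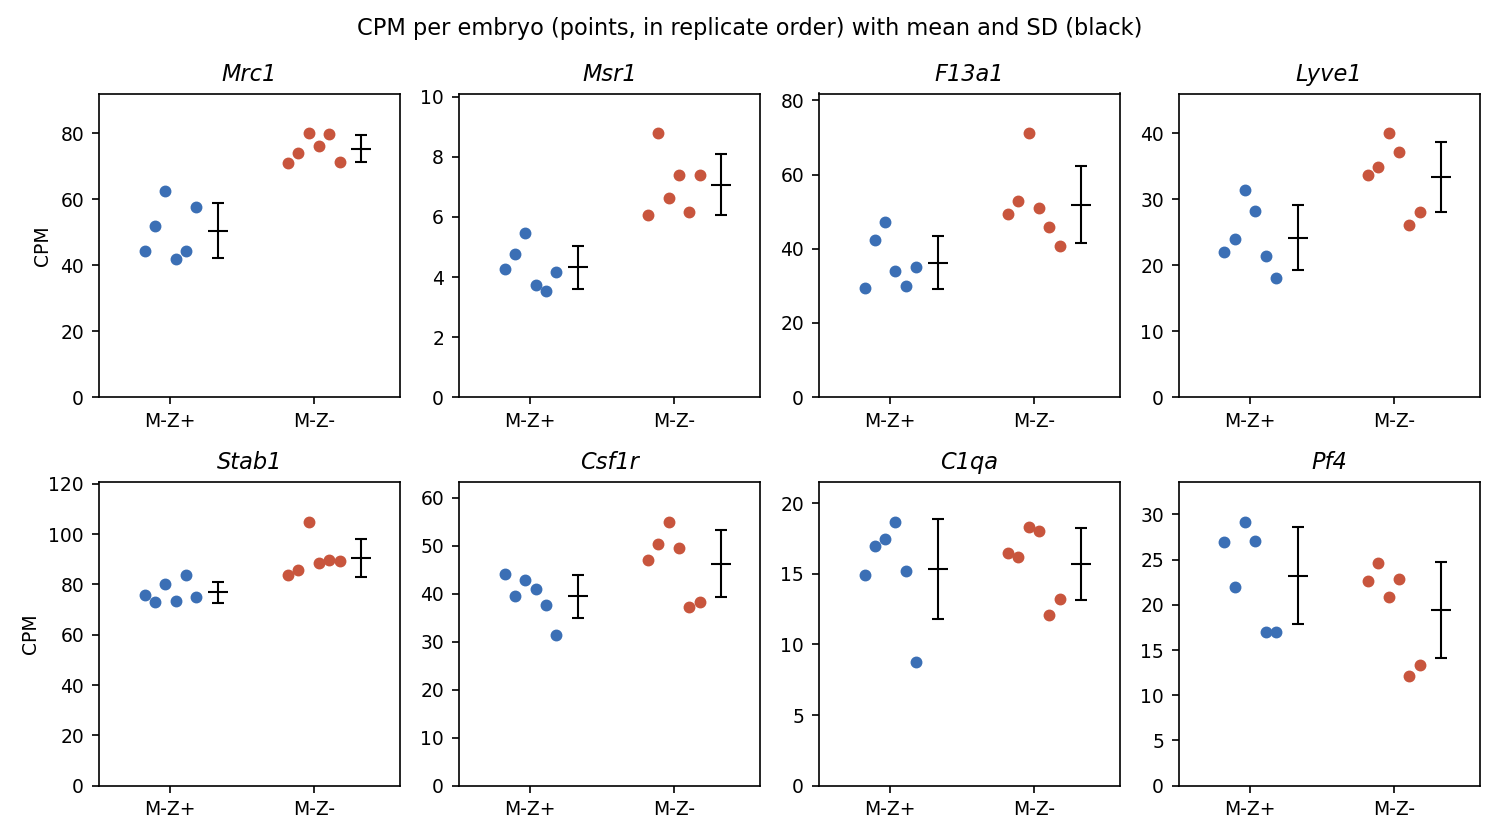
CPM of 8 macrophage genes in each embryo (blue: M-Z+, n = 6; red: M-Z-, n = 6; points in replicate order), with the mean and SD in black. *Mrc1*, *Msr1* and *Stab1* do not overlap between genotypes, whereas *C1qa* spans 8.75 to 18.7 CPM in M-Z+ and 12.1 to 18.3 CPM in M-Z- embryos.

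Of the 35 tested genes, 31 had a log2 fold change above 0, as did 48.3% of all tested genes. The 4 exceptions were *Pf4*, *Trem2*, *Laptm5* and *Mpeg1*. The median over the 35 genes was 0.19 and over the 33 genes other than *Mrc1* and *Msr1* it was 0.18, against -0.0072 over all tested genes. None of the 35 genes was called changed by edgeR at an adjusted p below 0.05 with a log2 fold change beyond 0.5, a call that 0.0811% of all tested genes passed. DESeq2 called 2 of them, *Mrc1* and *Msr1*, and 0.231% of all tested genes. At an unadjusted p below 0.05 with the same limit on the fold change, edgeR gave 3 genes, *Mrc1*, *Msr1* and *F13a1*, against 1.54% of all tested genes in either direction and 0.792% higher. Without that limit it gave 7 genes, all higher in M-Z- embryos (*Mrc1*, *Msr1*, *F13a1*, *Stab1*, *Lyve1*, *Dab2* and *Maf*), against 6.7% of all tested genes in either direction and 3.44% higher. Groups that did not overlap were found for 3 genes, *Mrc1*, *Msr1* and *Stab1*, all higher in M-Z- embryos, against 0.3% of all tested genes. Without the 3 libraries of steep length slope they were 7, these 3 and *Csf1r*, *Dab2*, *F13a1* and *Lyve1*, all higher, against 1.58% of all tested genes, while 1.37% of all tested genes and none of the 35 were lower without overlap. Since the genes were selected on this contrast, nothing is read from these counts. The shorter and the longer genes of the list had similar medians, 0.18 for 17 and 0.20 for 18 genes.

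**Figure D3:**
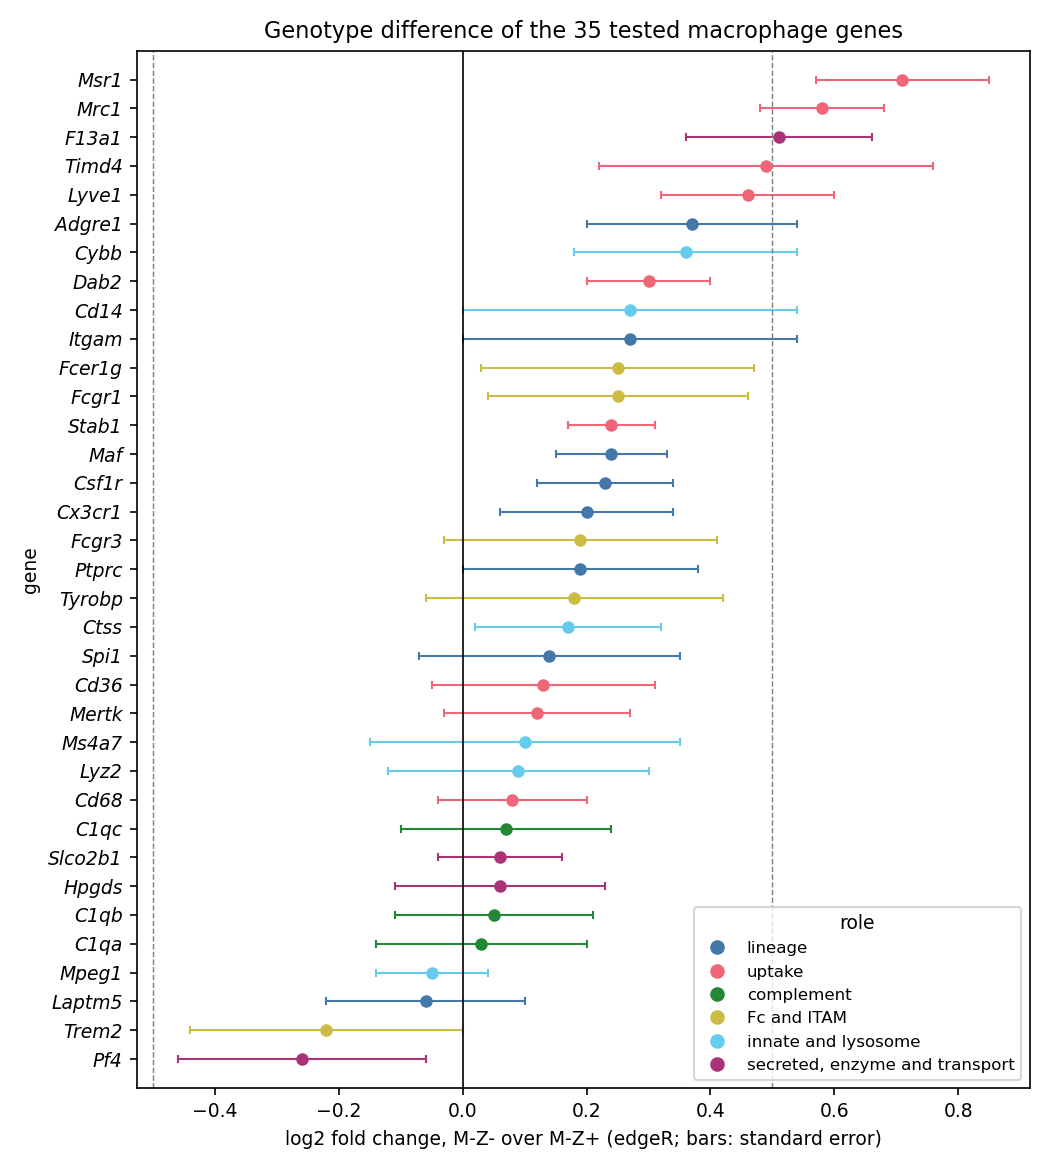
Log2 fold change, M-Z- over M-Z+, of the 35 tested macrophage genes (points) with its standard error (bars), coloured by role, with dashed lines at the limits of -0.5 and 0.5. *Msr1*, *Mrc1* and *F13a1* lie beyond 0.5 and *Pf4* is lowest at -0.26.

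To see whether *Mrc1* and *Msr1* moved with the other genes or apart from them, the mean log2(CPM + 1) of the 33 other tested genes was taken in each embryo as the level of the macrophage genes. This mean was 3.65 ± 0.16 (SD, n = 6) in M-Z+ and 3.81 ± 0.17 (SD, n = 6) in M-Z- embryos, a difference of 0.15 with overlapping groups. Summed, the 33 genes ranged from 560 to 738 CPM in M-Z+ and from 656 to 865 CPM in M-Z- embryos. The whole set was thus higher by about 1 SD on average.

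*Mrc1* exceeded this mean by 2.01 ± 0.26 on the log2 scale in M-Z+ and by 2.45 ± 0.18 in M-Z- embryos (SD, n = 6 each), a difference of 0.43 beyond that of the other genes. The ranges, 1.69 to 2.44 and 2.27 to 2.76, overlapped, and only 2 of 6 M-Z- embryos were above every M-Z+ embryo. The overlap came from 1 M-Z+ embryo, replicate 6, and the other 5 lay below all M-Z- embryos. *Msr1* was below the mean by 1.25 ± 0.15 in M-Z+ and by 0.80 ± 0.24 in M-Z- embryos, a difference of 0.45, with 4 of 6 M-Z- embryos above every M-Z+ embryo. Without the 3 libraries of steep length slope, the 2 differences were both 0.41 and neither gene overlapped, with 1.69 to 2.12 and 2.27 to 2.42 for *Mrc1*, and -1.49 to -1.18 and -1.10 to -0.55 for *Msr1*.

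As a share of the summed CPM of the 33 genes, *Mrc1* was 7.96% ± 1.12 in M-Z+ and 10.3% ± 1.07 in M-Z- embryos, and *Msr1* was 0.68% ± 0.0633 and 0.972% ± 0.166 (SD, n = 6 each). The *Msr1* shares did not overlap between genotypes, nor did the *Mrc1* shares without the 3 libraries of steep length slope (6.5% to 8.48% and 9.25% to 10.5%). Per *Csf1r* read there were 1.3 ± 0.314 *Mrc1* reads in M-Z+ and 1.66 ± 0.278 in M-Z- embryos, and 0.11 ± 0.0188 and 0.155 ± 0.0277 *Msr1* reads, each with overlap. Per *Lyve1* read there were 2.15 ± 0.554 and 2.31 ± 0.411 *Mrc1* reads, a difference within the SD. Without those 3 libraries the *Mrc1* reads were 1.19 ± 0.195 and 1.49 ± 0.0353 per *Csf1r* read and 1.95 ± 0.265 and 2.07 ± 0.056 per *Lyve1* read, and the *Msr1* reads were 0.106 ± 0.0171 and 0.143 ± 0.0241 per *Csf1r* read. The genotypes still overlapped in each of these ratios. *Mrc1* and *Msr1* were the genes whose difference led to the list, so their excess over the other genes was fixed in part by that choice and is a description.

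The same calculation was made for each gene, with the gene itself left out of the mean. It placed *F13a1* and *Lyve1* next to *Mrc1* and *Msr1*, at 0.36 and 0.31. In both, all 6 M-Z- embryos were above all M-Z+ embryos. *Timd4*, *Adgre1* and *Cybb* followed at 0.22, 0.20 and 0.17. *Csf1r* was at 0.07, *Cx3cr1* at 0.03, *C1qc* at -0.08, *C1qa* at -0.10 and *C1qb* at -0.12. The lowest were *Mpeg1* at -0.20, *Laptm5* at -0.21, *Trem2* at -0.33 and *Pf4* at -0.43. The 35 genes therefore formed a continuous range rather than a block with 2 genes apart, and *Mrc1* and *Msr1* held its upper end. This order was not kept by the log2 fold changes of every fit. With the length slope as a covariate, *Timd4* (0.73) was above *Msr1* (0.71). In that fit *Lyve1* (0.61) and *F13a1* (0.55) were above *Mrc1* (0.53).

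**Figure D4:**
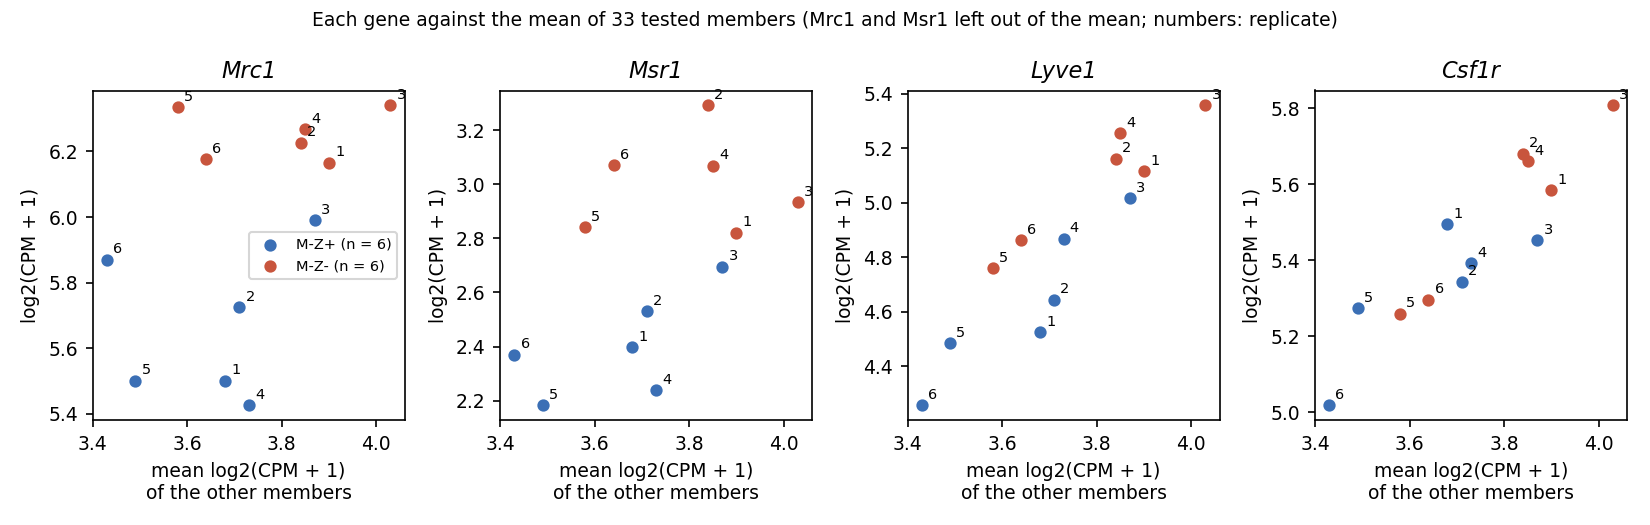
Log2(CPM + 1) of *Mrc1*, *Msr1*, *Lyve1* and *Csf1r* in each embryo (blue: M-Z+, n = 6; red: M-Z-, n = 6; numbers: replicate) against the mean log2(CPM + 1) of 33 tested macrophage genes, which holds *Lyve1* and *Csf1r* but not *Mrc1* and *Msr1*. The red points of *Mrc1*, *Msr1* and *Lyve1* lie above most blue ones at like means, by 0.43, 0.45 and 0.31 on average, and those of *Csf1r* by 0.07. The values 0.31 and 0.07 were taken against the mean without the gene itself.

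The variation between embryos of one genotype was not used to choose the genes, and it was tested whether *Mrc1*, *Msr1* and *Csf1r* varied together across the 6 embryos of each genotype. In M-Z+ embryos, *Mrc1* and *Msr1* had a Pearson r of 0.79 (two-sided exact permutation p = 0.0694, adjusted p = 0.417 over 6 relations) and a Spearman rho of 0.60 (exact permutation p = 0.242, adjusted p = 0.79). Without the 2 embryos farthest from the median of *Mrc1*, r was 0.83. In M-Z- embryos, r was -0.22 (exact permutation p = 0.7, adjusted p = 0.717), rho was -0.03 (exact permutation p = 1), and r became 0.53 without the 2 farthest embryos. None of the 6 relations passed the threshold, and the smallest p that 6 embryos allow is 0.0028.

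*Csf1r* and *Mrc1* gave r = -0.29 in M-Z+ (exact permutation p = 0.621, adjusted p = 0.717; rho = -0.26, exact permutation p = 0.658) and r = 0.16 in M-Z- embryos (exact permutation p = 0.717, adjusted p = 0.717; rho = 0.31, exact permutation p = 0.564). Without the 2 farthest embryos of each genotype these became 0.61 and 0.94, which were not tested. The values over all 6 embryos of a genotype thus depend on those embryos. The embryos left out were replicates 1 and 6 in M-Z+ and 5 and 6 in M-Z-, among them the 3 libraries of steep length slope. *Csf1r* and *Msr1* gave r = 0.30 in M-Z+ (exact permutation p = 0.575, adjusted p = 0.717; rho = 0.49, exact permutation p = 0.356) and r = 0.26 in M-Z- embryos (exact permutation p = 0.631, adjusted p = 0.717; rho = 0.31, exact permutation p = 0.564), which became 0.69 and 0.12 without the same embryos.

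The genes most like *Mrc1* across the 12 embryos, after the mean of each genotype was taken away, were not macrophage genes of the list. They were *Col8a1*, with r = 0.93, *Pcdhb12* (0.92), *Itih5*, *Phex* and *Arrb1* (0.91 each), with 10 residual degrees of freedom. Of the 34 other macrophage genes, 19 had an r above 0 with *Mrc1*, with a median of 0.05 against -0.00 over all tested genes. The most like was *Hpgds* (0.82), which ranked 86th, then *Ptprc* (0.69), and the least like was *Ms4a7* (-0.55). Those most like *Msr1* were *Cryzl1* (0.91), *Taf15* (0.88), *Mpc1* and *Colec10* (0.87 each) and *Kcns1* (0.85), and 28 of 34 macrophage genes had an r above 0 with it, with a median of 0.29 against 0.03 over all tested genes. *Maf* (0.58) and *Ptprc* (0.57) were the most like *Msr1* within the list. All points share depth and length slope, so these values are descriptions only.

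Relatives of both receptors and further macrophage genes had medians between 0.08 and 0.16, *Mrc1* and *Msr1* counted in their own families. In the mannose receptor family, *Mrc2*, the collagen receptor of mesenchymal cells, had a log2 fold change of 0.21 (SE 0.08), *Ly75* one of 0.11 (SE 0.20) and *Pla2r1* one of 0.10 (SE 0.26), against 0.58 for *Mrc1*. The 15 tested of 17 scavenger receptor genes had a median of 0.11, 13 being above 0. Besides *Msr1*, the gene of this family with the largest difference was *Stab2*, a scavenger receptor of sinusoidal endothelium, at 0.60 (SE 0.26). The other class A genes *Marco*, *Scara3*, *Colec12* and *Scara5* were at 0.24 (SE 0.23), 0.20 (SE 0.11), 0.14 (SE 0.10) and 0.01 (SE 0.19).

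Among 44 other macrophage and microglia genes, 38 were tested and 24 had a log2 fold change above 0, with a median of 0.08 and a range of -0.46 to 0.58. Some were above *Tyrobp* (60.9 TPM) in level, namely *Ctsb* (270 TPM), *Ctsd* (225), *Id3* (184), *Tmem119* (92.8) and *Lgmn* (87.0). Their log2 fold changes were -0.02, -0.07, -0.15, -0.14 and 0.05. Such genes may hold reads of other cells, so the median is not that of macrophages alone. *Nr1h3* was at 0.30 (SE 0.22) and *C3ar1* at 0.29 (SE 0.16), and the highest value, 0.58 (SE 0.32), was that of *Lst1*. Among the ligands that act on macrophages, 6 of 7 tested genes were above 0 with a median of 0.04. *Csf1*, a ligand of the *Csf1r* product, was at 0.19 (SE 0.08) and *Cx3cl1*, the ligand of the *Cx3cr1* product, at -0.37 (SE 0.11). EdgeR called none of these genes in either direction. At an unadjusted p below 0.05, it gave 1 of the 38 macrophage and microglia genes, higher, and *Csf1* (higher) and *Cx3cl1* (lower) of the ligands, where 3.44% of all tested genes were higher and 3.26% lower.

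*Mrc1*, *Lyve1*, *Stab1* and *Dab2* are also expressed by sinusoidal or lymphatic endothelium, and *Pf4* by megakaryocytes, so markers of these cells were examined beside them. The 9 tested of 11 lymphatic and liver sinusoidal genes had a median log2 fold change of 0.24, 7 being above 0, with *Stab2* at 0.60 (SE 0.26) and *Reln* at 0.42 (SE 0.20), and *Clec1b* at -0.25 (SE 0.15) and *Pdpn* at -0.15 (SE 0.09) below 0. Their summed level was 196 to 319 CPM in M-Z+ and 250 to 352 CPM in M-Z- embryos, and the lymphatic chemokine *Ccl21a* was at 0 counts. The 15 endothelial genes had a median of 0.04, 11 being above 0, with 640 to 726 and 674 to 798 CPM in sum. *Tek* was at 0.33 (SE 0.09) and *Flt1* at 0.32 (SE 0.09), while *Cldn5* was at -0.23 (SE 0.13) and *Ramp2* at -0.17 (SE 0.15). Endothelial markers thus had values on both sides of 0, most of them above it. Their part in the values of *Mrc1*, *Lyve1* and *Stab1* was not tested.

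The 11 megakaryocyte and platelet genes had a median of -0.19, with 3 above 0, and summed to 74.3 to 106 CPM in M-Z+ and 72.4 to 94.8 CPM in M-Z- embryos. *Ppbp* was at -0.33 (SE 0.22) and *Gp1bb* at -0.32 (SE 0.13), beside -0.26 for *Pf4*. Their median had the sign of *Pf4*, and their part in its value was not tested.

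Neutrophils, monocytes and mast cells share genes with macrophages. The 9 tested of 12 neutrophil and granulocyte genes had a median of -0.25, with 1 above 0, *Mpo* at -0.27 (SE 0.21) and *S100a9* at -0.25 (SE 0.18), and *Ly6g* was at 0 counts. The neutrophil sum was 32.6 to 59.4 CPM in M-Z+ and 28.7 to 52.9 CPM in M-Z- embryos. The 5 tested of 8 monocyte genes had a median of -0.15, which became 0.10 with the length slope as a covariate, and their sum of 690 to 1320 and 1070 to 1390 CPM was mostly *Fn1*, a matrix gene at 0.24 (SE 0.14), with *F10* at -0.21 (SE 0.21). The 4 tested of 9 mast cell genes had a median of -0.02 (*Cpa3* at -0.26, SE 0.25, and *Kit* at 0.19, SE 0.10). This median had no stable sign, reaching 0.17 with the length slope and 0.26 without M-Z+ replicate 3. The mast cell sum of 50.5 to 73.2 and 61.3 to 67.3 CPM was mostly *Kit* (mean 47.5 CPM in M-Z+), and *Fcer1a* was at 0 counts. Only 3 of 12 lymphoid genes could be tested, with a median of 0.19 and *Ebf1* at 0.06 (SE 0.09). The lymphoid sum of 79.7 to 111 and 88.3 to 102 CPM was mostly *Ebf1* (mean 87.1 CPM in M-Z+).

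Erythroid and hepatocyte genes mark the fetal liver, where many macrophages of this stage reside. The 11 tested erythroid genes had a median of -0.12 and summed to 7740 to 13800 CPM in M-Z+ and 9560 to 12700 CPM in M-Z- embryos, with *Hbb-y* at 0.36 (SE 0.26) and *Klf1* at -0.32 (SE 0.13). The 12 hepatocyte genes had a median of -0.21, which became 0.01 with the length slope in the model, and summed to 4150 to 7910 and 3150 to 7500 CPM, with *Apoa2* at -0.43 (SE 0.28) and *Apoa1* at -0.38 (SE 0.26). Their part in the macrophage values was not tested. EdgeR called no gene of these lists. At an unadjusted p below 0.05, it gave 3 endothelial and 2 lymphatic or sinusoidal genes, all higher, and 2 megakaryocyte genes and 1 erythroid gene, all lower, and none of the neutrophil, monocyte, mast cell, lymphoid and hepatocyte genes, where 3.44% of all tested genes were higher and 3.26% lower by this measure.

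**Figure D5:**
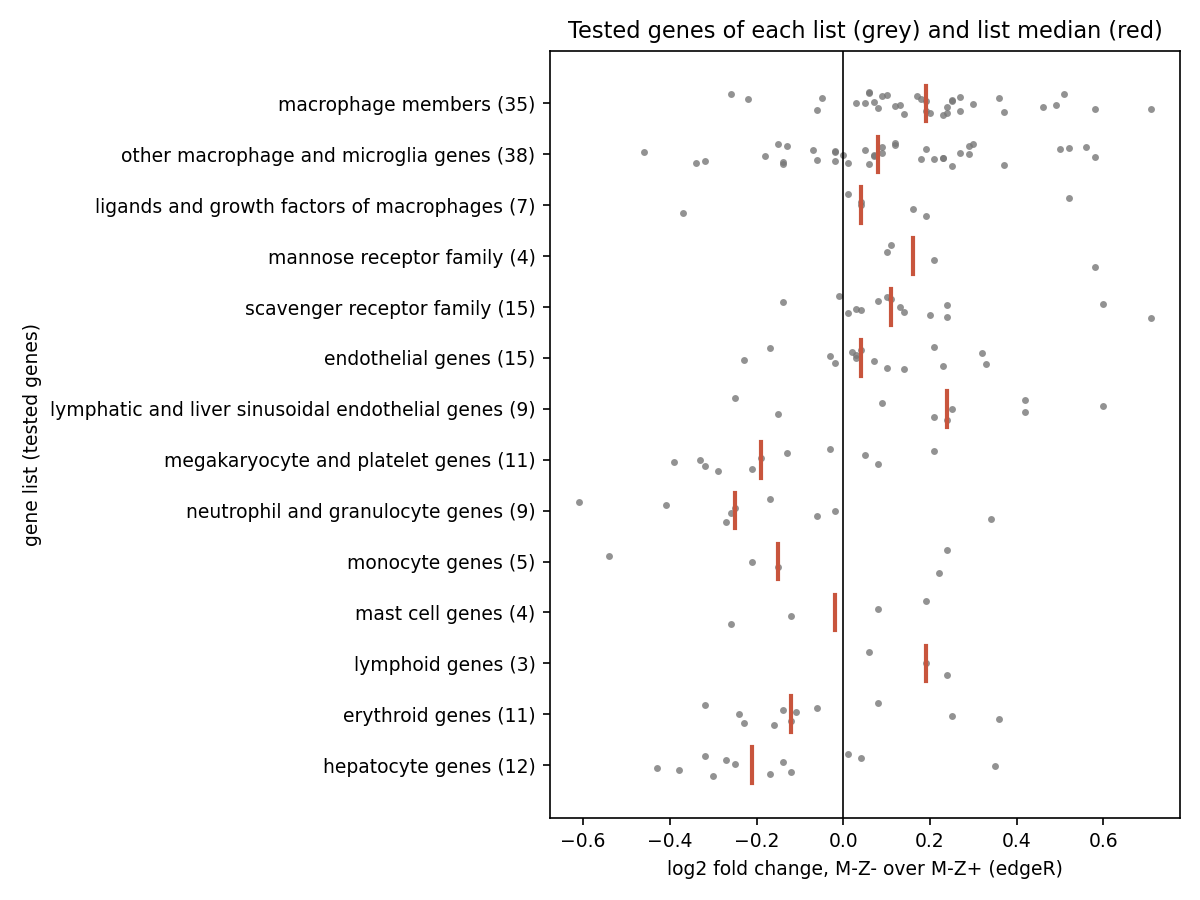
Log2 fold change, M-Z- over M-Z+, of each tested gene (grey points) of the macrophage list and of 13 other lists, with the list median (red line) and the number of tested genes in brackets. The median is 0.19 for the macrophage genes, 0.24 for lymphatic and sinusoidal endothelial genes and -0.25 for neutrophil genes.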

How the data were processed

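RNA-seq of whole E13.5 embryos, 6 of the M-Z+ and 6 of the M-Z- genotype, was analysed, grouped by the titles in the labels. The authors deposited 1 table of read counts and FPKM (counts scaled to gene length and library total) for 34745 genes. Per the labels, libraries were made from total RNA with a universal RNA-seq kit, and the submitters' processing notes name HISAT2 2.0.4 and mm10. The counting program, its strand setting and the annotation were not given in the sources used, so reads of overlapping genes cannot be separated. The deposited FPKM values served only to obtain gene lengths for TPM, and 0 of 238855 values above 0.01 differed from counts per length and library total by more than 0.1%.

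Counts were normalised by TMM and filtered by filterByExpr, and 16026 genes were fitted with the edgeR quasi-likelihood test (edgeR 4.0.16, R 4.3.3), with Benjamini-Hochberg adjustment over all of them. A gene was called when its log2 fold change exceeded 0.5 in size and its adjusted p was below 0.05. The SE is the log2 fold change divided by the square root of F. Scripts were tested on simulated data. Alternatives were DESeq2 1.42.0, other size factors and filters, the replicate block, the gene length slope, 2 surrogate variables (sva 3.50.0), and each embryo left out. Leaving out the 3 libraries of steepest length slope, and the list medians under all alternatives were added after the data were seen.

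The 37 genes and the gene lists were chosen with earlier results of these data known. Genes given with lowest, median and highest values were *Mrc1*, *Msr1*, *Csf1r*, *Adgre1*, *C1qa*, *C1qb*, *C1qc*, *Lyve1*, *Cd163*, the 3 with the largest and the 3 with the smallest log2 fold change, and the 3 with the highest TPM. *Stab1* was added after its values were seen, since its groups did not overlap. Other lists are represented by the 2 genes of largest absolute log2 fold change with a mean of at least 50 counts. Added after their values were seen were *Ly75*, *Pla2r1*, *Marco*, *Scara3*, *Colec12* and *Scara5* as relatives of *Mrc1* and *Msr1*, and *Lst1*, *Clec1b*, *Pdpn*, *Cldn5* and *Ramp2* to show the range of their lists. *Ctsb*, *Ctsd*, *Id3*, *Tmem119* and *Lgmn* were likewise added, for their levels. Labels do not state whether embryos of a genotype shared a litter, so p-values measure the spread between these embryos. The 12 bisulfite samples were not analysed here.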

Additional observations from a re-analysis of the deposited data

Results flagged for a closer look

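For each tested macrophage gene and for the few sums and ratios derived from them, 76 groups of 6 embryos were examined for a single embryo far from the others, which chance marks in about 1 in 20 groups (3.8 of 76). It was found in 2 groups. *Stab1* was at 105 CPM in M-Z- replicate 3, where the next embryo was at 89.9 and the lowest at 83.9 CPM. *Cybb* was at 7.99 CPM in M-Z+ replicate 3, where the next embryo was at 5.47 and the lowest at 4 CPM. The log2 fold change of *Stab1* was 0.19 without M-Z- replicate 3, and that of *Cybb* was 0.51 without M-Z+ replicate 3.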

How the results depend on the processing

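The number of macrophage genes called was 0 with edgeR under the other size factors, filters and surrogate variables, 2 with DESeq2 (*Mrc1* and *Msr1*), 2 with the length slope as a covariate (*Mrc1* and *Lyve1*, among 0.144% of all tested genes) and 3 at an unadjusted p with the same fold limit. With 2 surrogate variables, *Mrc1* and *Lyve1* had an edgeR adjusted p below 0.05. They were not called because their log2 fold changes, 0.47 and 0.48, were below the limit of 0.5. Leaving out 1 embryo gave 0 to 1 calls, *Mrc1* being called without M-Z+ replicate 3 or without M-Z+ replicate 6. *Mrc1* had log2 fold changes that ranged from 0.47 with 2 surrogate variables to 0.65 without M-Z+ replicate 3, and those of *Msr1* ranged from 0.61 to 0.79. Relative to the other 33 genes, *Mrc1* ranged from 0.37 to 0.52 and *Msr1* from 0.39 to 0.53. This measure was taken from CPM, so its range holds no fit with a covariate. With the length slope as a covariate, the log2 fold changes were 0.53 for *Mrc1* and 0.71 for *Msr1*. The median of the 35 genes was then 0.28. The median of the 35 genes ranged from 0.12 to 0.28. Of these genes, 25 kept 1 sign under all alternatives and 10 (*Ptprc*, *Laptm5*, *Mertk*, *Cd36*, *C1qa*, *C1qb*, *C1qc*, *Lyz2*, *Ms4a7* and *Hpgds*) changed sign under at least 1. The median of the ligands, 0.04, became 0.25 with the length slope and 0.15 with 2 surrogate variables, and 0.01 to 0.14 when 1 embryo was left out. With the length slope, the monocyte median of -0.15 became 0.10, the hepatocyte median of -0.21 became 0.01 and the mast cell median of -0.02 became 0.17. The mast cell median was also above 0 without the filter (0.13) and with the replicate block (0.09), and ranged from -0.19 to 0.26 when 1 embryo was left out. The cause was not tested.

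Embryos of the 2 genotypes share replicate numbers, and the labels do not say whether the numbers pair them. The correlation of same-numbered deviations was 0.02 to 0.64, above 0.1 for 4 of 6 numbers, and 1 of 6 embryos was most like its own number. These values do not settle whether same-numbered embryos shared a litter or batch. With the replicate block, 0 macrophage genes were called, and the log2 fold changes were 0.59 for *Mrc1* and 0.72 for *Msr1*. Among the tested genes, depth limits *Ms4a7*, *Itgam*, *Cd14*, *Fcgr1*, *Trem2* and *Timd4* most, with 9 to 70 reads per embryo, followed by *Spi1* and *Msr1*.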
